A study of Homo sapiens with 6 samples.

Results

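LINC-named lncRNAs are long non-coding RNA genes that were named by number because they lie between protein-coding genes, with no better description at hand. The set described here is every row of the deposited count table of type lncRNA whose symbol is LINC followed only by digits, 442 of 23384 rows (441 symbols, since LINC01605 is carried by more than 1 identifier). The table holds 6 RNA-seq libraries of CAL27, a long-used line of human oral squamous carcinoma cells. In 3 libraries the cells carry the genotype label WT and received the vector (controls), and in 3 they carry the label TNFAIP2 overexpression and received a plasmid for that gene. Growth conditions were the same for all. Nothing in the labels says that libraries of a group are separate cultures, and p-values therefore cover only the spread among libraries, possibly technical. The design text speaks of infection, the treatment label of transfection. Because cells were measured in bulk, fewer cells making an RNA and less of it per cell cannot be told apart.

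Most such RNAs are transcribed by RNA polymerase II, spliced and given a poly(A) tail like messenger RNAs, but carry no long reading frame. Some act in the nucleus on nearby genes or chromatin, others in the cytoplasm, and many are made in few tissues at low levels. Many lie close to a protein-coding gene, on the same or the opposite strand, so a strand-aware count is needed to tell them from their neighbours.

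The libraries held 3092261 to 3527161 counts. All 11 epithelial and squamous markers looked up had counts, with sums of 24489 to 26499 in controls and 25120 to 25564 in the others, mostly from KRT8 (18350 to 22116). The leukocyte markers PTPRC and CD79A and the fibroblast markers DCN and LUM had no row under these names. The table holds only features with counts, so a missing row can mean no counts or another name. Summed, the leukocyte list had 2 to 8 counts and the fibroblast list 3 to 18 in a library. MLANA had 0 to 3 counts, but the same list held PMEL at 499 to 642, and POU5F1 of the pluripotent list had 41 to 54. TNFAIP2 under its own name had 194, 112 and 162 counts in controls 1 to 3 and 194, 152 and 142 in TNFAIP2-labelled libraries 1 to 3 (log2 fold change -0.21, SE 0.28, edgeR adjusted p = 0.881), so these counts do not show the overexpression and both groups are named only as labelled. The counts are kept apart by strand, but the strand setting of the counting is not known here, so it is not known which of 2 names on opposite strands a count belongs to. The own-strand ratio bears on this and is, in each library, the median, over 366 features lying inside exons of a protein-coding gene on the other strand, of the gene's count divided by the feature's count. It was 0.103, 0.0995 and 0.180 in controls 1 to 3 and 0.198, 0.137 and 0.194 in TNFAIP2-labelled libraries 1 to 3. For these 366 features the protein-coding gene thus typically had far fewer counts than the feature inside its exons, in all 6 libraries. Features entered only with at least 60 counts in all, with no such limit on the gene, which pushes the ratio down. Whether the counting took the strand opposite the read's gene was not tested. Counts and levels below are given under the deposited names. If strands are exchanged, counts printed for a LINC-named lncRNA may be reads of the gene opposite it, and the reverse. No LINC-named lncRNA enters that ratio.

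For many LINC-named lncRNAs with high counts another gene is annotated on the other strand, and 5 stretches that such pairs share are printed to show what the strand has to tell apart. The counts are totals per gene and do not say where in a gene its reads lie. Each line below gives 60 bases, 5′ to 3′, of an exonic stretch shared by a pair in GENCODE release 29 (GRCh38), read from the transcript of each gene. The letters of a pair are reverse complements, so a read placed there belongs to one or the other name by its strand alone. Capitals mark the polyadenylation signal hexamer AATAAA and its reverse complement TTTATT. Either was found in 5.93% of the 28369 windows of 60 bases cut from the GENCODE transcripts of the LINC-named lncRNAs. The pair at chr19:15835627-15835686 is shown for the highest level per length. That at chr2:87455791-87455850 is shown for the largest level per kb of exon on the LINC side relative to the other side (ratio 1279). Larger differences exist with the other side higher. The pair at chr21:33915618-33915677 is an example with a protein-coding gene. The pairs at chr3:157082349-157082408 and chr20:50313798-50313857 are shown because both names are LINC-named lncRNAs.
LINC01764 (minus strand): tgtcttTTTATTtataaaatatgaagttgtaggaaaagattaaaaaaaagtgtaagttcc
UCA1 (plus strand): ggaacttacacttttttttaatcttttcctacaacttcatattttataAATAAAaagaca
LINC01943 (minus strand): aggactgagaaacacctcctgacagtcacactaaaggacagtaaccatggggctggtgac
CYTOR (plus strand): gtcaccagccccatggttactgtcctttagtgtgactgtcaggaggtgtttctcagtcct
LINC00649 (plus strand): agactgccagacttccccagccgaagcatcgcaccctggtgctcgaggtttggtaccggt
ATP5PO (minus strand): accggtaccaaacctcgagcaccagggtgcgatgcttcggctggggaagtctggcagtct
LINC02029 (plus strand): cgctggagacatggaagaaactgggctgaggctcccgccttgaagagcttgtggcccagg
LINC00880 (minus strand): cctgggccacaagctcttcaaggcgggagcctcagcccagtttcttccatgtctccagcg
LINC01271 (minus strand): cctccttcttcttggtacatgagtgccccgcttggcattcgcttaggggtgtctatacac
LINC01270 (plus strand): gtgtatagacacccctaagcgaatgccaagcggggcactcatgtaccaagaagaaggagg

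Counts were concentrated in few genes. The 5 with the most counts held 58.3% and the first 12 held 79.7% of all counts of the set, while the median was 6.5 counts over the 6 libraries together. At least 60 counts in all were found for 69 genes, at least 10 for 178 and fewer than 10 for 264, of which 79 had 1 count. The lower ranks are thus known only as traces at this depth.

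Counts differed by what is annotated or counted on the other strand. For 15 genes at least 50 exonic bases were shared with exons of a protein-coding gene on the other strand, and these held 21.2 to 23.5% of the set's counts per library. A further 82 shared at least 50 exonic bases with another kind of gene, mostly lncRNAs and pseudogenes, and held 32.2 to 35.1%. In 101 the gene span overlapped a counted feature on the other strand, with no such exonic overlap, and these held 39.6 to 42.3%. The remaining 244, or 55.2% of the set, held 3.23 to 4.99% of its counts per library. They had no counted feature opposite and no exonic overlap of at least 50 bases, which is called nothing found opposite here. A GENCODE 29 gene span can still lie there, as that of protein-coding BCHE does for LINC01322. The median was 76, 17, 8 and 5 counts in these classes in the order given. All 24 genes with the most counts had something found opposite in this sense, and the highest-ranked gene without it, LINC02383, stood at rank 25 with 289 counts. The table holds only features with counts. The split of the 101 from the 244 thus depends in part on reads at the locus, not on annotation alone. Genes that share no exon or span may still lie opposite a gene model not used here, since the deposited table and GENCODE 29 gave the same start and end for 232 genes and other ends for 210.

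**Figure D1:**
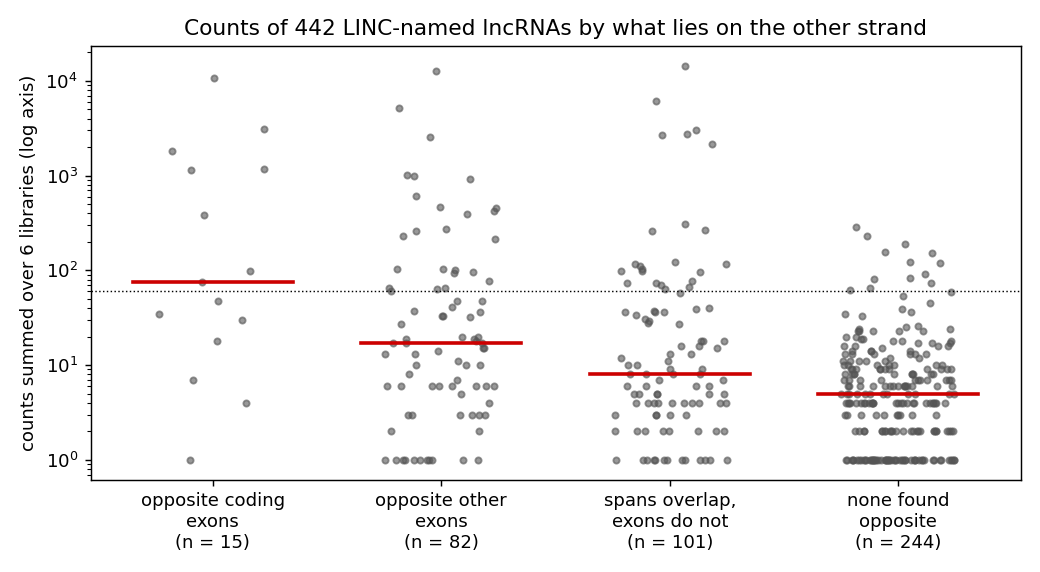
Counts of each of the 442 LINC-named lncRNAs summed over 6 libraries (log axis), by what is annotated or counted on the other strand. Each point is a gene, red lines are medians (76, 17, 8 and 5) and the dotted line marks 60 counts. Every gene above 289 counts lies in the first 3 classes.

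Among LINC-named lncRNAs with at least 60 counts, the deposited names usually listed more counts for them than for the opposite feature. That limit was set on the LINC side alone, which favours that side, so the numbers below do not compare the strands evenly. Of the 69 genes with at least 60 counts, 54 had a counted feature opposite, and 37 of these had more counts than that feature, 16 of them at least 10 times more. Per kilobase of exon in GENCODE 29, 35 of 52 pairs were higher on the LINC side, with a median ratio of 4.44. With strands exchanged, the 37 and the 35 would be pairs with the higher value on the other side, and levels per kb would have to be computed over the other gene's exons. The pairs are not all separate, since some consist of a pair of LINC-named lncRNAs counted from either side. Among the pairs with the higher level on the other side were LINC01123, opposite the pseudogene ZBTB45P1, at 0.908 CPM per kb against 23.1, and LINC00623 at 2.14 against 38.7. The gap was far larger for LINC01128 and LINC01409, at 0.538 and 0.892 CPM per kb. Both face the same feature, the pseudogene AL669831.3, at 5803 CPM per kb with 639489 counts in all. CPM is the count per library size, with sizes scaled by TMM, a method that equalises most genes between libraries.

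Several leading genes lay opposite lncRNAs known from carcinomas. LINC01764 (ENSG00000267308) runs from 15827005 to 15835853 on the minus strand of chromosome 19 and has 489 of its 669 exonic bases in common with UCA1, a lncRNA described in bladder carcinoma. It had 2037, 2538 and 2024 counts in the controls and 2000, 2222 and 1994 in the TNFAIP2-labelled libraries. UCA1 had 39, 47 and 135 against 132, 106 and 134. On the CPM scale LINC01764 was highest in controls 1 and 2, where UCA1 was lowest and the own-strand ratio was also lowest. Per length, under the deposited names, LINC01764 stood at 960 CPM per kb, above every other gene of the set, and UCA1 at 6.83. With strands exchanged the higher count would be that of UCA1.

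LINC01943 (ENSG00000280721) runs from 87439523 to 87459044 on the minus strand of chromosome 2 and has 405 exonic bases in common with CYTOR, formerly LINC00152, a lncRNA raised in many carcinomas. It had 684, 966 and 806 counts in the controls and 789, 902 and 1015 in the TNFAIP2-labelled libraries, so the groups overlap. CYTOR had 6, 0 and 5 against 10, 17 and 12, with no overlap in counts. Per length the levels were 174 and 0.136 CPM per kb. LINC00847 on chromosome 5 shares 514 exonic bases with HEIH, a lncRNA named for its rise in hepatocellular carcinoma, at 53.3 against 10.8 CPM per kb.

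Other leading genes lay opposite protein-coding genes. LINC01018 (ENSG00000250056, chromosome 5, 6582136 to 6600288, plus strand) had 2844, 2579 and 2220 counts in the controls and 2148, 2423 and 2271 in the TNFAIP2-labelled libraries, the most of the set. Its deposited span runs tail-to-tail over 1050 bases into NSUN2, the gene of an RNA cytosine methyltransferase, which had 413, 415 and 577 against 632, 546 and 682. NSUN2 was thus lowest in controls 1 and 2, and LINC01018 highest there. In GENCODE 29 LINC01018 ends at 6588499, short of NSUN2, and its level of 208 CPM per kb, 7.16 times that of NSUN2, rests on that shorter model.

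LINC00649 on chromosome 21 shares 300 exonic bases with ATP5PO, the gene of a subunit of mitochondrial ATP synthase. It had 1689, 1875 and 1747 counts in the controls and 1813, 1780 and 1842 in the TNFAIP2-labelled libraries, and stood at 37.4 CPM per kb beside 1.18 for ATP5PO. LINC00337 shares 89 exonic bases with ICMT, the methyltransferase of prenylated proteins (66.2 beside 9.36 CPM per kb). LINC00884 shares 198 with ATP13A3, a transporter gene (31.7 beside 2.29). Spans alone overlap for LINC01504 and ZFAND5, a zinc finger gene linked to the proteasome (125 beside 3.76), for LINC00571 and UFM1, a ubiquitin-like modifier gene (114 beside 7.23), and for LINC00867 and FAM204A (110 beside 0.754). In each of these pairs the LINC-named lncRNA had the higher level per length under the deposited names. All were chosen for a high level on the LINC side. As for LINC01018, the GENCODE 29 models of LINC01504, LINC00571 and LINC00867 stop short of the opposite gene, so their levels per length and the lack of exon overlap rest on those shorter models. For LINC00649, LINC00337 and LINC00884 the shared bases are 2.09, 3.77 and 6.78% of the exonic bases. Of the 20 genes with the most counts, 9 lay head-to-head with the opposite feature, so that each holds the other's start, 7 lay tail-to-tail, 3 held it whole and 1 lay inside it.

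LINC00565 and LINC01291 faced no protein-coding gene. LINC00565 (chromosome 13), whose GENCODE 29 model is also shorter than the deposited span, stood at 64.9 CPM per kb and LINC00452, another gene of the set that it overlaps tail-to-tail, at 1.00. LINC01291 (chromosome 2, 74918148 to 74938418, plus strand) stood at 32.6 CPM per kb, beside 0.205 for the unnamed lncRNA it holds on the other strand. The protein-coding gene nearest to it was POLE4, of a DNA polymerase epsilon subunit, at 20074 bases.

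In 11 pairs of LINC-named lncRNAs on opposite strands the exons share at least 50 bases and at least 1 partner was assigned the other as its opposite feature. Pairs in which both were assigned another feature are not included. The counts of the partners differed at least 2-fold in 8 pairs and less in 3, from 1.03-fold (LINC01138 with 37 counts and LINC02806 with 36) to 10.9-fold (LINC01271 and LINC01270). On chromosome 3 LINC02029 had 224, 181 and 134 counts in the controls and 122, 164 and 165 in the TNFAIP2-labelled libraries. LINC00880, with 1078 exonic bases in common, had 74, 111 and 54 against 67, 95 and 64. LINC02029 was thus higher in every library, at 33.7 beside 11.6 CPM per kb. LINC01271 and LINC01270 on chromosome 20 share 1333 exonic bases and stood at 22.7 and 1.55 CPM per kb. LINC01117 and LINC01116 on chromosome 2 share 222 and stood at 15.8 and 1.25. The deposited span of LINC01117, 176495255 to 176819180, is longer than its GENCODE 29 model, 176637710 to 176655958, on which its level per length rests.

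Ordered by level per length, the 12 genes with the highest mean CPM ran from LINC01764 (960 CPM per kb) over LINC01018 (208), LINC01943 (174), LINC01504 (125), LINC00571 (114), LINC00867 (110), LINC00337 (66.2), LINC00565 (64.9), LINC00847 (53.3), LINC00649 (37.4) and LINC01291 (32.6) to LINC00884 (31.7). Deposited and GENCODE 29 ends differ for all of these except LINC01943, LINC00337, LINC00649 and LINC01291. The order thus rests on exon lengths that may not be those used for counting. The ranges over the 6 libraries overlapped between neighbours in this order except from LINC01764 to LINC01018 and from LINC00867 to LINC00337. LINC01018 had 838 ± 187 CPM in controls against 624 ± 74.2 (SD, n = 3), LINC01764 717 ± 112 against 567 ± 69.8 and LINC00649 577 ± 53.6 against 494 ± 22.6. For these 3 genes the groups overlap.

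**Figure D2:**
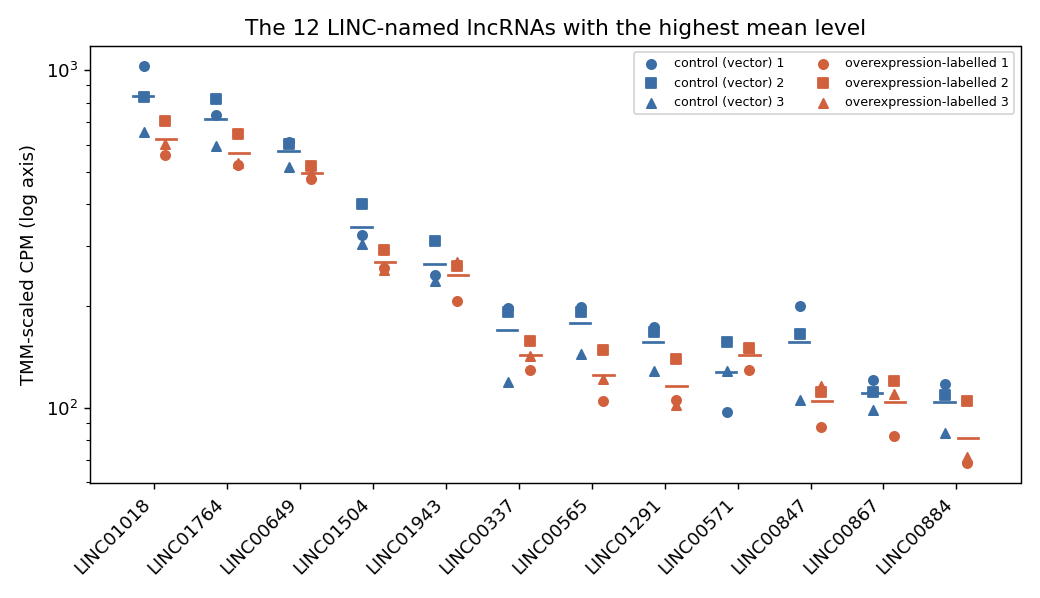
TMM-scaled CPM (log axis) of the 12 LINC-named lncRNAs with the highest mean level, 1 point per library, controls in blue and TNFAIP2-labelled libraries in orange; horizontal bars are group means. The groups overlap for each gene except LINC01504.

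No LINC-named lncRNA passed the test between the groups. Of the 442, 68 passed the filter on low counts and 374 did not, so nothing is said of change in the latter. With edgeR's quasi-likelihood test, 0 of 68 passed an adjusted p of 0.05, beside 0 of 11851 features (0.0% higher, 0.0% lower). DESeq2 and limma-voom also called 0 of the 68, beside 0.0253% and 0.00844% of all features. The lowest adjusted p in the set was 0.830. An unadjusted p under 0.05 was found for 6 lower and 1 higher, 7 in all, beside 3.06%, 1.83% and 4.89% of all features. The 2 groups did not overlap on the CPM scale for 8 genes in the lower direction and 1 in the higher, beside 4.92% and 5.54% of all features.

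Values leaned low as a group, as did those of lncRNAs in general. The median log2 fold change of the 68 was -0.31 with 16 above 0 and 52 below, where the median of all tested features was 0.02, with 51.9% above 0 and 48.1% below. The other 2272 tested lncRNAs had a median of -0.28 with 17.1% positive, and 10.2% of them were lower without overlap, against 11.8% of the 68. With library totals in place of TMM the median of all features moved to 0.18 and 28 of the 68 were positive. The median of the 68 lay 0.33 below that of all features with either scaling. The own-strand ratio averaged 0.128 in controls and 0.176 in TNFAIP2-labelled libraries. With that ratio added to the model the median of the 68 was -0.11 and 29 were positive. In that fit the median was -0.014 for all features and -0.019 for the other lncRNAs, of which 46.6% were positive. The 8 tested genes opposite protein-coding exons had 1 positive value (median -0.25), the 24 opposite other exons 4 (median -0.25), the 23 with overlapping spans 5 (median -0.44) and the 13 with nothing found opposite 6 (median -0.14).

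**Figure D3:**
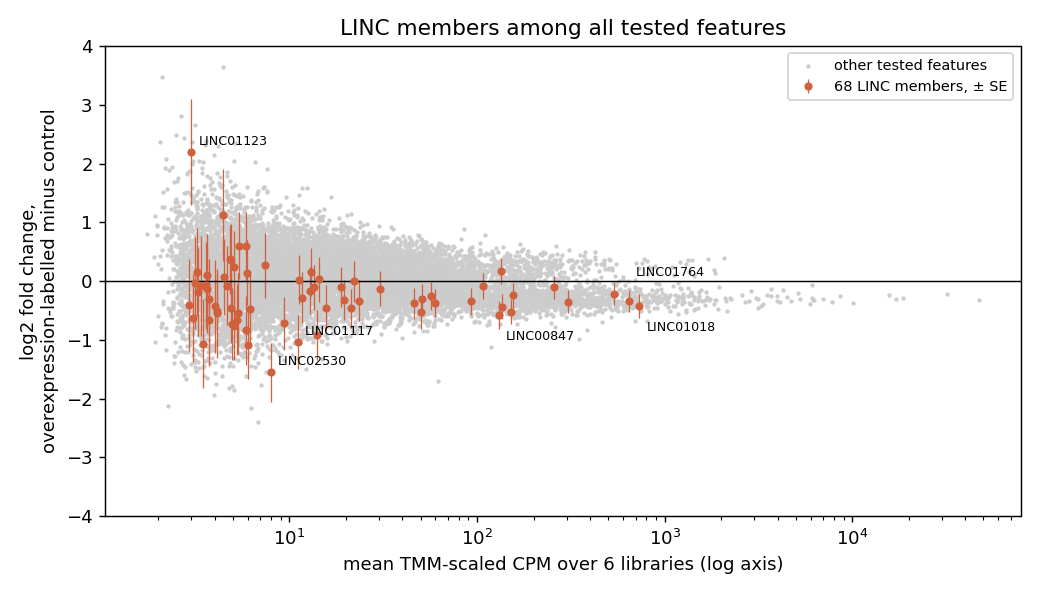
Log2 fold change, TNFAIP2-labelled minus control, against mean CPM over 6 libraries (log axis), for 68 tested LINC-named lncRNAs (orange, bars are SE) and the other tested features (grey). Of the 68, 16 lie above 0, and none passed the edgeR test.

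The set took a small share of each library's counts, 0.447, 0.447 and 0.412% in controls 1 to 3 and 0.377, 0.422 and 0.395% in TNFAIP2-labelled libraries 1 to 3, or 0.435 ± 0.0201 and 0.398 ± 0.0223% (SD, n = 3). Control 3 lay below TNFAIP2-labelled library 2, so the groups overlap. The 2 libraries with the lowest own-strand ratio, controls 1 and 2, had the highest shares, and the 2 with the highest ratio, TNFAIP2-labelled libraries 1 and 3, had the lowest. All lncRNAs together made up 41.4, 40.6 and 35.7% of counts in controls and 34.1, 37.7 and 35.2% in TNFAIP2-labelled libraries. Whether the ratio sets the share was not tested. Between 209 and 241 genes of the set had at least 1 count in a library.

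The lowest p in the set belonged to LINC02530 (ENSG00000234015, chromosome 6, 12582915 to 12585404, minus strand), which has nothing found opposite. It had 31, 41 and 38 counts in controls 1 to 3 and 12, 21 and 11 in the TNFAIP2-labelled libraries. Every control library lay above every TNFAIP2-labelled library, at 11.9 ± 1.17 and 4.06 ± 1.79 CPM (SD, n = 3). The log2 fold change was -1.55 (SE 0.50, edgeR unadjusted p = 0.00546, adjusted p = 0.830), and -1.29 (SE 0.53) with the own-strand ratio in the model. LINC01117, the partner of LINC01116, had 45, 55 and 36 counts and 12, 29 and 38, with log2 fold change -1.04 (SE 0.46, adjusted p = 0.830). On the CPM scale its groups did not overlap, with control 3 at 10.6 CPM just above TNFAIP2-labelled library 3 at 10.1. LINC00943 had 71, 61 and 32 counts and 32, 45 and 28 (log2 fold change -0.92, SE 0.42), with control 3 among the TNFAIP2-labelled libraries. LINC00847 (log2 fold change -0.58, SE 0.24) and LINC00565 (-0.52, SE 0.21) also had overlapping groups. Of the opposite features, HEIH was at -0.49 (SE 0.36) and LINC00452 at -0.07 (SE 0.74), the latter much smaller than its SE.

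Of the values above 0, that of LINC01123 was the largest. It had 2, 0 and 8 counts in controls and 27, 14 and 14 in TNFAIP2-labelled libraries, so every TNFAIP2-labelled library lay above every control. The log2 fold change was 2.20 (SE 0.90, edgeR unadjusted p = 0.0228, adjusted p = 0.830) from 65 counts in all, and 1.51 (SE 0.95) with the own-strand ratio in the model. ZBTB45P1, which shares 962 exonic bases with it on the other strand, had a log2 fold change of -0.36. LINC00623 had 0, 9 and 18 counts and 32, 19 and 17 (log2 fold change 1.13, SE 0.78), with control 3 inside the TNFAIP2-labelled range. LINC00205 was at 0.60 (SE 0.57), which rested on 41 counts in TNFAIP2-labelled library 2 beside 12 to 18 in the other libraries. LINC00571, an abundant gene of the set, was at 0.17 (SE 0.22).

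Calls turned on control 3, the control with the highest own-strand ratio. Without it edgeR called 6 of 79 tested genes of the set at an adjusted p of 0.05 (7.59%, beside 7.41% of all features). Of these, 5 were lower (6.33%, beside 3.28%) and 1 was higher, beside 514 of 12443 features. In this fit the median log2 fold change was -0.37 for the set and -0.41 for the other lncRNAs. The 6 were LINC01018, LINC00565, LINC00847, LINC00943 and LINC02029, which were lower, and LINC01123, which was higher. The log2 fold change in this fit was -0.58 for LINC01018 (edgeR adjusted p = 0.0204), -0.81 for LINC00847 (adjusted p = 0.00696) and 3.70 for LINC01123 (adjusted p = 0.0350), the last against 2 controls with 2 and 0 counts. Their names come from this fit and were chosen after the values were seen. Without control 3, the remaining controls had own-strand ratios of 0.103 and 0.0995, below every TNFAIP2-labelled library (lowest 0.137). Group and ratio thus cannot be told apart in this fit. Leaving out any other library called 0.

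LINC-named lncRNAs studied in squamous and other epithelial carcinomas ranged from 1 to 233 counts over the 6 libraries. Of 18 such names looked up, 10 have a row and 3 reached 60 counts. The other 8 have no row under that name and are not analysed here. Such a gene can lack counts or be listed under another symbol, as LINC00152 is as CYTOR. LINC00958, described as promoting growth of oral and bladder carcinoma, had 31, 37 and 51 counts in controls and 20, 53 and 41 in TNFAIP2-labelled libraries. Its log2 fold change was -0.28 with an SE of 0.44 (adjusted p = 0.895 with edgeR). LINC00511 had 13, 16 and 10 counts and 17, 27 and 27 (log2 fold change 0.60, SE 0.57), and its level was 0.195 CPM per kb over 27605 exonic bases. LINC00973 had 8, 14 and 13 counts and 12, 3 and 12 (-0.63, SE 0.76). None of these 3 separated the groups. LINC01116 had 47 counts in all, 28 of them in TNFAIP2-labelled library 3, LINC01605 40 on 1 identifier and 1 on the other, LINC01503 17, LINC00460 9, LINC00707 5, LINC01315 3 and LINC01133 1. LINC00958 and LINC00973 have nothing found opposite. Of 7 LINC names under which small peptides were described, LINC00467 alone has a row, with 17 counts in all, and the other 6 names are not analysed here. LINC names of leukocytes, melanocytes, neural and pluripotent cells that have a row had at most 20.

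Promoter sequence was the other feature compared across the set. RefSeq (GRCh38.p14) gave a promoter, from 250 bases before to 50 after the start, for 299 genes of the set. Their ratio of observed to expected CpG, the dinucleotide kept in promoters of broadly used genes, had a median of 0.36, against 0.58 over all 35116 promoters. It was 0.45 for the 43 with at least 60 counts and 0.33 for the 178 with fewer than 10. A ratio of at least 0.6 was found in 41.9% of those 43, 25.3% of those 178 and 48.9% of all promoters. The motif TATAAA, on either strand, was found in 13.0% of the 299 and 11.5% of all promoters. The promoter of LINC01018 (chr5:6581886-6582185, plus strand) holds 2 CpG dinucleotides and, in capitals, the motif as TTTATA on the opposite strand, while the gene had 14485 counts. That of LINC00511 (chr17:72640423-72640722, minus strand) holds 35 CpG and no TATAAA, while the gene had 110.
LINC01018: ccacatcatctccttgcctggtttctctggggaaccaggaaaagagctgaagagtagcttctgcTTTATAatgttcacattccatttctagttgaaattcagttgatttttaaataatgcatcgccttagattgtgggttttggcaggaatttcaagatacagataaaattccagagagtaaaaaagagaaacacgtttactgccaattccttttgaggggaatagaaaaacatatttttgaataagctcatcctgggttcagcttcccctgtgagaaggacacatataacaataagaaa
LINC00511: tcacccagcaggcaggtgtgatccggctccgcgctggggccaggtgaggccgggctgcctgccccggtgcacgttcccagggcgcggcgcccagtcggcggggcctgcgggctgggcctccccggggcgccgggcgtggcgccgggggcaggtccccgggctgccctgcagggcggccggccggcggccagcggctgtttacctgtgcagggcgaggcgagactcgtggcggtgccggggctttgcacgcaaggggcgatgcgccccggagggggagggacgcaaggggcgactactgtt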

How the data were processed

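Each value the authors deposited is a whole-number count of reads for 1 gene in 1 library, without normalization. The kit was a stranded mRNA kit, per the labels' protocols. Tools listed in the submitters' processing notes are HTSeq 0.13.5, HISAT2 2.2.0 and Trim Galore 0.6.4, with GRCh38 and hg38 as builds. Which strand setting and annotation release were used is not given in the sources used here. Between libraries of a group, the chi-square per degree of freedom was 5.07 to 19.4 with 0 identical pairs. Each was treated as a replicate, though these values cannot tell separate cultures from separate preparations of 1 culture.

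The whole table was fitted with edgeR 4.0.16 in R 4.3.3 (filterByExpr, TMM, robust glmQLFit and glmQLFTest), with Benjamini-Hochberg adjustment over 11851 features. SE were derived from the F statistic. In data simulated for this comparison over 11352 features, 20.8% of 96 changes of 2-fold and 72.5% of 91 changes of 4-fold were recovered, with 4 false calls. The changed features were drawn from all tested features, and no shift in own-strand ratio was simulated. Recovery for LINC-named lncRNAs alone was not measured. DESeq2 1.42.0, limma-voom (limma 3.58.1), other scalings and filters, a replicate block, the own-strand ratio (log2) as a covariate and leaving out each library were the alternatives. The own-strand ratio used features with at least 60 counts in all and 90% of their exonic bases inside the opposite gene's exons, with 0.5 added to each count. Exons were merged per gene from GENCODE 29, which held all 442 genes, on GRCh38. Opposite features were assigned by the largest exonic overlap, or the largest span overlap where exons did not meet, protein-coding genes before others.

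Genes were named if among the 12 highest in mean CPM, the 5 lowest p in each direction, or on the lists with at least 60 counts in all. The genes and lists were chosen with earlier results of these data known.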

Additional observations from a re-analysis of the deposited data

How the results depend on the processing

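No genes of the set were called by edgeR, DESeq2 or limma-voom under any alternative that kept all 6 libraries. Leaving out each library in turn gave 0 to 6 called genes of the set and 0 to 922 called features, the higher value in both cases without control replicate 3. Over all features, 3 were called without a filter on low counts, 1 with at least 1 CPM in 3 libraries, 3 by DESeq2 and 1 by limma-voom. With the replicate block 0 features and 0 genes of the set were called. Same-numbered libraries did not deviate together (correlations of -0.25, 0.15 and -0.05). With so few libraries this cannot exclude a shared culture or batch. Of 294 recomputed log2 fold changes of 21 named genes, 9 changed sign, all of them small. LINC01943 turned to 0.0627 with library totals and 0.0448 with the own-strand covariate, and ran from -0.187 to 0.0502 when libraries were left out in turn. LINC00867 turned to 0.0819 and 0.10 under the same settings and ran from -0.164 to 0.0588. LINC00337 turned to 0.15 with the covariate, and LINC00958 ran from -0.62 to 0.0456 when libraries were left out. The cause was not tested. The mean share of the set's counts on genes opposite protein-coding exons was 22.2%, moving to 16.3% with a limit of 200 bases and to 55.6% with exons of any gene. Without LINC01018 the set's share of all counts was 0.357% (controls) and 0.333% (TNFAIP2-labelled), and leaving out libraries gave 0.429 to 0.447% and 0.386 to 0.408%. Depth limits the 264 genes with fewer than 10 counts.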
